A study of Mus musculus with 6 samples.

Results

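Semaphorins, slits, ephrins and netrins, together with their plexin, neuropilin, Robo, Eph and Unc5 receptors, were examined in mouse embryonic fibroblasts with and without Lasp1. The genes were taken by symbol from these 9 families in the probe annotation, which gave 64 genes of the 19057 measured (33 ligands and 31 receptors). For each gene the brightest probe across the 6 arrays was read. The rule read symbols only, but the members were chosen with earlier results of these data known. The Lasp1 knockout group held 3 arrays of Lasp1-/- fibroblasts and the wild-type group held 3 arrays of Lasp1+/+ fibroblasts, all of the C57Bl/6NCr strain. LASP1 is an actin-binding protein of focal adhesions, and the series title concerns cell migration and tumour formation. The labels give neither embryo age, passage number nor separate cultures, so p-values measure only the spread among the 6 arrays, and that spread may be technical.

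Guidance proteins were first described as cues that attract or repel growing axons, and many of them also steer migrating mesenchymal, endothelial and neural crest cells. Secreted class 3 semaphorins bind neuropilins, which signal through plexins, and the other semaphorins mostly bind plexins directly. Slits bind Robo receptors, netrins bind Unc5 receptors and DCC, and ephrins on the surface of a cell bind Eph receptor kinases on its neighbours. All 4 systems act on actin filaments at the cell edge.

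Of the 64 genes, 5 rose and 7 fell in Lasp1 knockout fibroblasts (limma, Benjamini-Hochberg adjusted p under 0.05 over all genes), and 52 did not pass. Slit3 and Slit2, Robo2, Sema5a, Epha3, Epha5 and Efna1 fell. Sema3c, Sema3b, Epha1, Epha2 and Unc5c rose. The falls of Sema5a (2.22-fold) and Slit3 (2.04-fold) were the only ones past 2-fold among the called guidance genes, and 0.661% of all genes were called with at least that fold. Called members made up 18.8% of the set, against 6.28% of all genes, with 2.19% of all genes higher and 4.08% lower. All 12 called genes were brighter than the median probe (993) in knockout, wild type or both. The same held for all 1196 genes called among the 19057, so it is not particular to the guidance genes. Brightness was taken from the higher group mean, which favours genes that differ. Among genes of that brightness, 12 of 52 members were called (23.1%), against 9.52% of 12564 genes. Because the members were chosen with earlier results of these data known, these shares are not an independent comparison. The median log2 difference was -0.05 in the members and -0.02 in all genes.

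The members called under every one of the 12 alternative settings examined were Sema5a, Slit3, Sema3c and Unc5c, and their promoter windows are shown because the results rest most on these genes. The largest limma adjusted p in these settings was 0.0118 for Sema5a and for Slit3. It was 0.0449 for Unc5c and 0.0499 for Sema3c, which thus passed narrowly in its weakest setting. Each window runs from 250 bases before to 50 bases after the transcription start in RefSeq, build GRCm38.p6, and all 4 lie on the plus strand. They are chr15:32244563-32244862 for Sema5a, chr11:35121206-35121505 for Slit3, chr5:17574566-17574865 for Sema3c and chr3:141465314-141465613 for Unc5c. Capitals mark matches on either strand to the motifs searched. The motifs were the TATA box as TATAAA, the GC box of Sp family factors as GGGCGG, an E-box as CACGTG, the AP-1 site as TGANTCA, the site of TEAD factors as GGAATG, and the CArG box of SRF. In Sema5a and Slit3 some GGGCGG matches overlap each other, and no match of any other motif lies in the 4 windows.
Sema5a: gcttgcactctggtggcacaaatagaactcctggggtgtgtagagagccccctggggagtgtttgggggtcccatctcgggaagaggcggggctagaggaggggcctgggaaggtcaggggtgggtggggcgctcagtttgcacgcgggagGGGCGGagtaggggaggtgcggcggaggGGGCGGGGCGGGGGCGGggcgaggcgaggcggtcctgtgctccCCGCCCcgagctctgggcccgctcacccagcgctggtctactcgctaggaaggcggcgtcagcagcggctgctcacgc
Slit3: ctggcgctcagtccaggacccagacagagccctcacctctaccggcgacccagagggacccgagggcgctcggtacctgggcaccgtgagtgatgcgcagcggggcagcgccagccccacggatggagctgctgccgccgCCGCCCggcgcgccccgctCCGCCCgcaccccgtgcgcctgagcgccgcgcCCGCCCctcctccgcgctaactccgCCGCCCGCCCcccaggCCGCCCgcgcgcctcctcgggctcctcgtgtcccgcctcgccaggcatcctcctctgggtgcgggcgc
Sema3c: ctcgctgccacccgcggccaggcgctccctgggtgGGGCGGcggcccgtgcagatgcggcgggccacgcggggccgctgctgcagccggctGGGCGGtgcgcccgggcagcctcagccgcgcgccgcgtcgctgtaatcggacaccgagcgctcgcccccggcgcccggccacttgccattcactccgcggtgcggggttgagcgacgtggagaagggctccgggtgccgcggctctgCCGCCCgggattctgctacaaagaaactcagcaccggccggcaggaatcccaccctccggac
Unc5c: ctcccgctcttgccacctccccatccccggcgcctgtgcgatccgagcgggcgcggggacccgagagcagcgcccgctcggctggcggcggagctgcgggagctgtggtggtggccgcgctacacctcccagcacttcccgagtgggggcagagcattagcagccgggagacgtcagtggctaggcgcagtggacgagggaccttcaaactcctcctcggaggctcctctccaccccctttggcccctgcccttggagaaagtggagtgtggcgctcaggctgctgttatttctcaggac

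GGGCGG occurred 5 times in the Sema5a window, 6 times in Slit3, 3 times in Sema3c and 0 times in Unc5c. It was present in 72.2% of the 72 windows found for 56 of the members, and in 35.7% of all 32851 windows. The GC content was 71.3% for Sema5a, 78.3% for Slit3, 75.7% for Sema3c and 68.3% for Unc5c, against a median of 52.7% over all windows. TATAAA was in 2.78% of the members' windows and 13.6% of all windows. CACGTG was in 6.94% and 7.15%, TGANTCA in 4.17% and 7.81%, GGAATG in 12.5% and 14.7%, and the CArG box in 2.78% and 1.63%. Both genes that fell and the rising gene Sema3c held GC boxes, while the rising gene Unc5c held none in its window.

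Lasp1 itself was read first as a check of the labels. Its brightest probe gave 51904, 51019 and 49770 in knockout arrays, against 135295, 148208 and 148809 in wild-type arrays. Whether this probe lies inside the deleted stretch of Lasp1 is not given in the labels. Knockout arrays kept 35.3% of the wild-type level at this probe (limma adjusted p = 1.00e-05 over all probes). Another Lasp1 probe kept 24.8% (limma adjusted p = 0.00018 over all probes). The dimmest Lasp1 probe, near the array median, read 923 ± 69.3 in knockout and 1107 ± 58.2 in wild type (SD, n = 3 each). It kept 83.4% and did not pass (limma adjusted p = 0.121 over all probes). Arrays shared a median of 1000, and Spearman correlations within groups lay between 0.956 and 0.963. The upper quartile of intensity differed, at 2018 to 2283 in knockout and 2041 to 2330 in wild type, with the highest values in knockout replicate 1 and wild type replicate 2. Of 50 members above the median over all arrays, knockout replicate 1 was the highest knockout array in 38 and wild type replicate 2 the highest wild-type array in 35.

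Fibroblast markers were bright, with 12 of 12 exceeding the median probe in knockout, wild type or both. Of these, 5 fell in knockout cells (Col1a2, Thy1, Pdgfrb, Dcn and Lum) and 7 did not pass. Their summed intensity was 815511 to 871244 in knockout and 999976 to 1160655 in wild type. Because RNA came from whole cultures, fewer cells of a type and less RNA per cell cannot be told apart. Of 9 epithelial markers, 3 fell (Krt8, Krt14 and Krt19), with a sum of 12421 to 12998 in knockout and 25308 to 30105 in wild type, while Krt5, Epcam and Esrp1 stayed at or below the median in both groups. Of 6 measured glial and neural crest markers, Sox10 and Mbp fell (sum 7259 to 8109 in knockout and 8696 to 10261 in wild type), with S100b, Erbb3 and Gfap at or below the median. Of 10 endothelial markers, Emcn rose (sum 12720 to 13458 in knockout and 12186 to 12901 in wild type), while Cdh5, Tie1, Cldn5, Vwf and Icam2 were at or below the median. Of 10 neuronal markers, 0 passed, with sums of 14943 to 15537 in knockout and 14246 to 16475 in wild type, and Snap25, Nefl and Elavl3 at or below the median. Lyz2 rose among 7 blood cell markers (14927 to 15939 in knockout, 11295 to 13621 in wild type, Ptprc and Itgam at or below the median). Acta1 rose among 6 skeletal muscle markers (21255 to 22352 in knockout, 11762 to 13397 in wild type, Myod1, Myf5 and Ckm at or below the median). Among 8 chondrocyte markers Col2a1 rose and Sox9 fell (55416 to 64066 in knockout, 49670 to 57653 in wild type, Matn1, Matn3 and Hapln1 at or below the median). Col2a1 read 18527 ± 3537 in knockout and 1207 ± 21.8 in wild type (SD, n = 3 each). Sox9 read 34290 ± 2362 in knockout and 47448 ± 4275 in wild type (SD, n = 3 each). The part of these shifts in the guidance results was not tested.

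**Figure D1:**
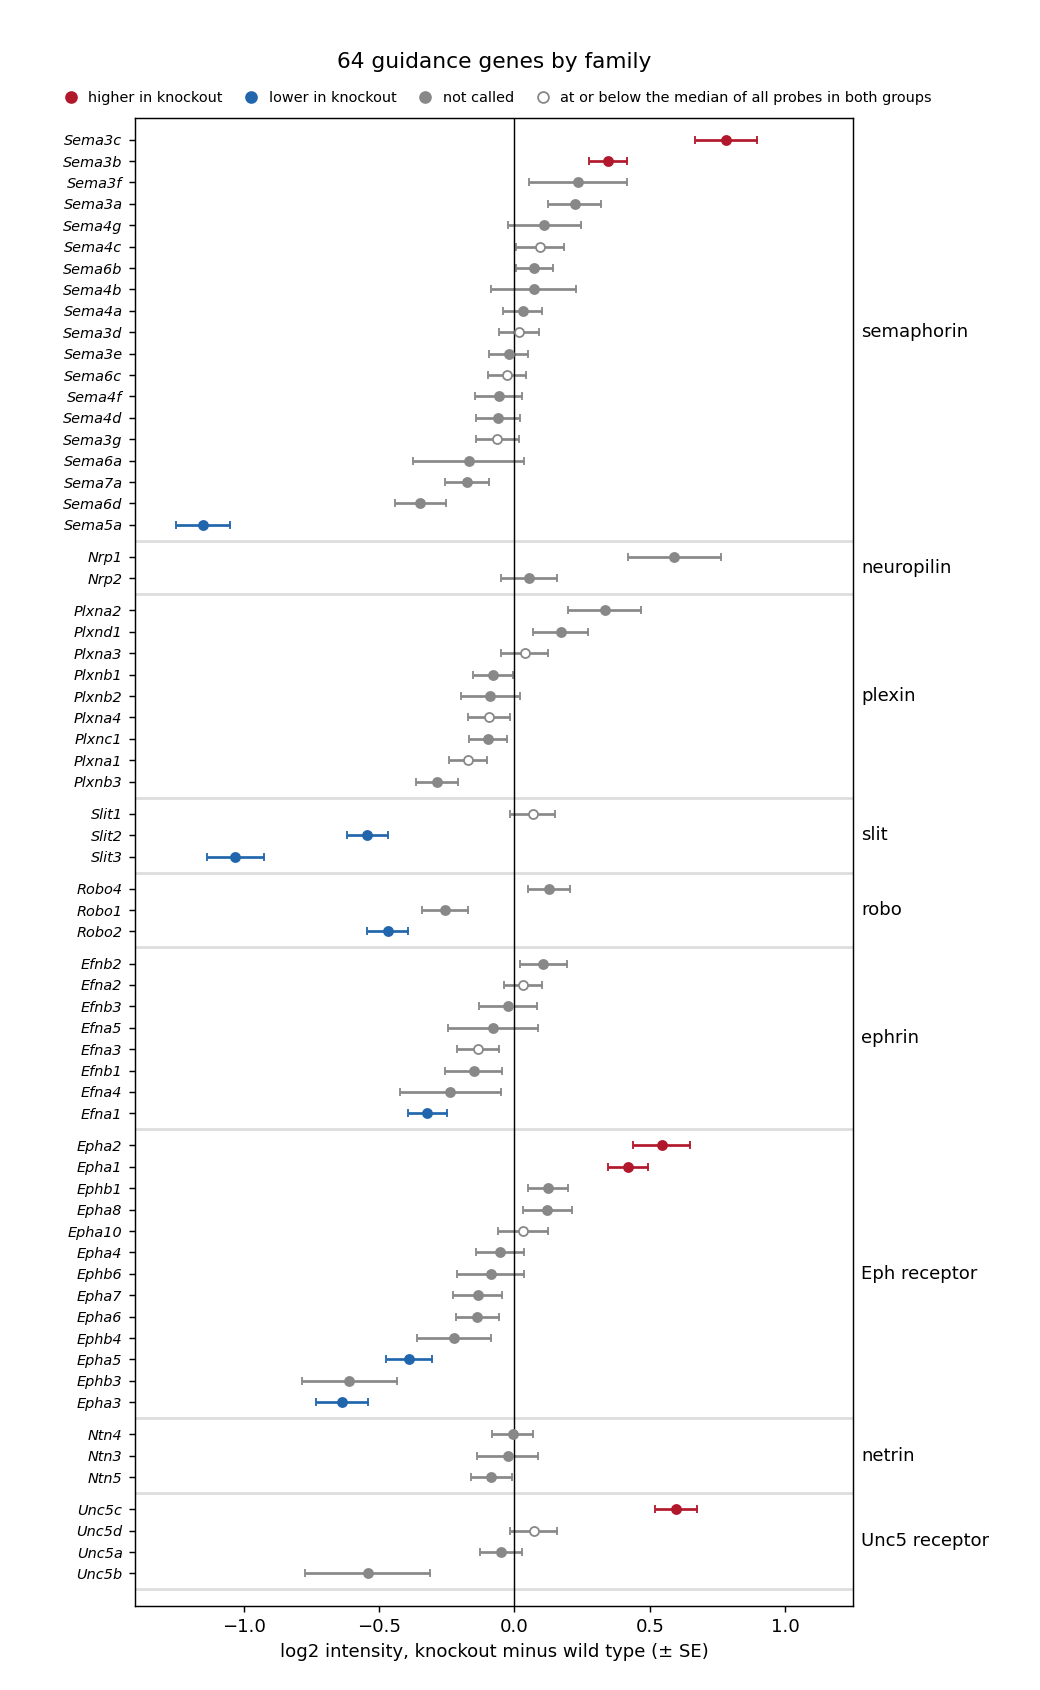
Log2 difference in intensity, Lasp1 knockout minus wild type, with its SE for each of the 64 guidance genes (rows, grouped by family). Red points rose, blue points fell, grey points did not pass, and open points had both group means at or below the median of all probes. Sema5a at -1.15 and Slit3 at -1.03 lie farthest to the left and Sema3c at 0.78 farthest to the right.

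Slit3 and Slit2 were lower in knockout cells at their brightest probes. Slit3, a secreted ligand of Robo receptors, read 14878, 14393 and 12620 in knockout arrays, against 25998, 32569 and 27175 in wild-type arrays. The groups did not overlap, and the highest knockout array lay far below the lowest wild-type array. The log2 difference was -1.03 ± 0.10 (SE, n = 3 per group), with a limma adjusted p of 0.000591. A separate probe of Slit3 gave 7408, 5118 and 6196 in knockout arrays and 15200, 21851 and 18870 in wild-type arrays, a log2 difference of -1.58 ± 0.15 (limma adjusted p = 0.000701 over all probes). Thus both bright Slit3 probes fell. A probe near the array median, at 1014 on average, gave 0.14 ± 0.08 and did not pass. Slit3 lies on chromosome 11, as does Lasp1. Efnb3, also on chromosome 11, gave -0.02 ± 0.11 and did not pass (limma adjusted p = 0.959). A link between position and these values was not tested.

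Slit2, the paralog studied most for repelling axons and leukocytes, was less uniform. Its brightest probe read 23243, 24976 and 24342 in knockout arrays and 33537, 34347 and 37883 in wild-type arrays. The groups were apart, with a log2 difference of -0.54 ± 0.08 (limma adjusted p = 0.0034). Another 3 Slit2 probes, with mean intensities of 4929, 3902 and 3173, gave 0.15 ± 0.25, 0.24 ± 0.23 and 0.20 ± 0.27 and did not pass. On these 3 probes the groups overlapped, and knockout replicate 1 and wild type replicate 2 were the high arrays of their groups. The mean over all 7 probes of Slit2 gave -0.02 (limma adjusted p = 0.963), so the fall of Slit2 rests on 1 probe. It also missed the threshold after background correction (-0.55, limma adjusted p = 0.0841). Slit1, the brain-enriched member, was at or below the median in both groups.

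Robo receptors, the transmembrane receptors of slits, gave 1 fall. Robo2 read 1280, 1279 and 1236 in knockout arrays and 1622, 1790 and 1844 in wild-type arrays. The groups did not overlap, and the log2 difference was -0.47 ± 0.08 (limma adjusted p = 0.00694). A different Robo2 probe also fell, with 1121, 1162 and 1128 in knockout arrays and 1443, 1580 and 1805 in wild-type arrays (-0.49 ± 0.09, limma adjusted p = 0.0147 over all probes). Both probes were dim, and background correction gave -0.84 for the brighter of them, so the size of the fall is not settled. The mean over all 7 Robo2 probes, 3 of them below the median of all probes, did not pass (-0.18, limma adjusted p = 0.143), nor did the fit without knockout replicate 3 (-0.45, limma adjusted p = 0.0512).

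Robo1, which lies beside Robo2 on chromosome 16 with 0 protein-coding genes between them in RefSeq, read 14287, 13577 and 12535 in knockout arrays and 14951, 16094 and 17204 in wild-type arrays. Its groups were also apart, but the log2 difference of -0.26 ± 0.08 did not pass (limma adjusted p = 0.126). Robo4, the endothelial family member, read 1024 ± 37.5 in knockout and 937 ± 64.1 in wild type (SD, n = 3 each). These values lay near the array median and the groups overlapped.

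**Figure D2:**
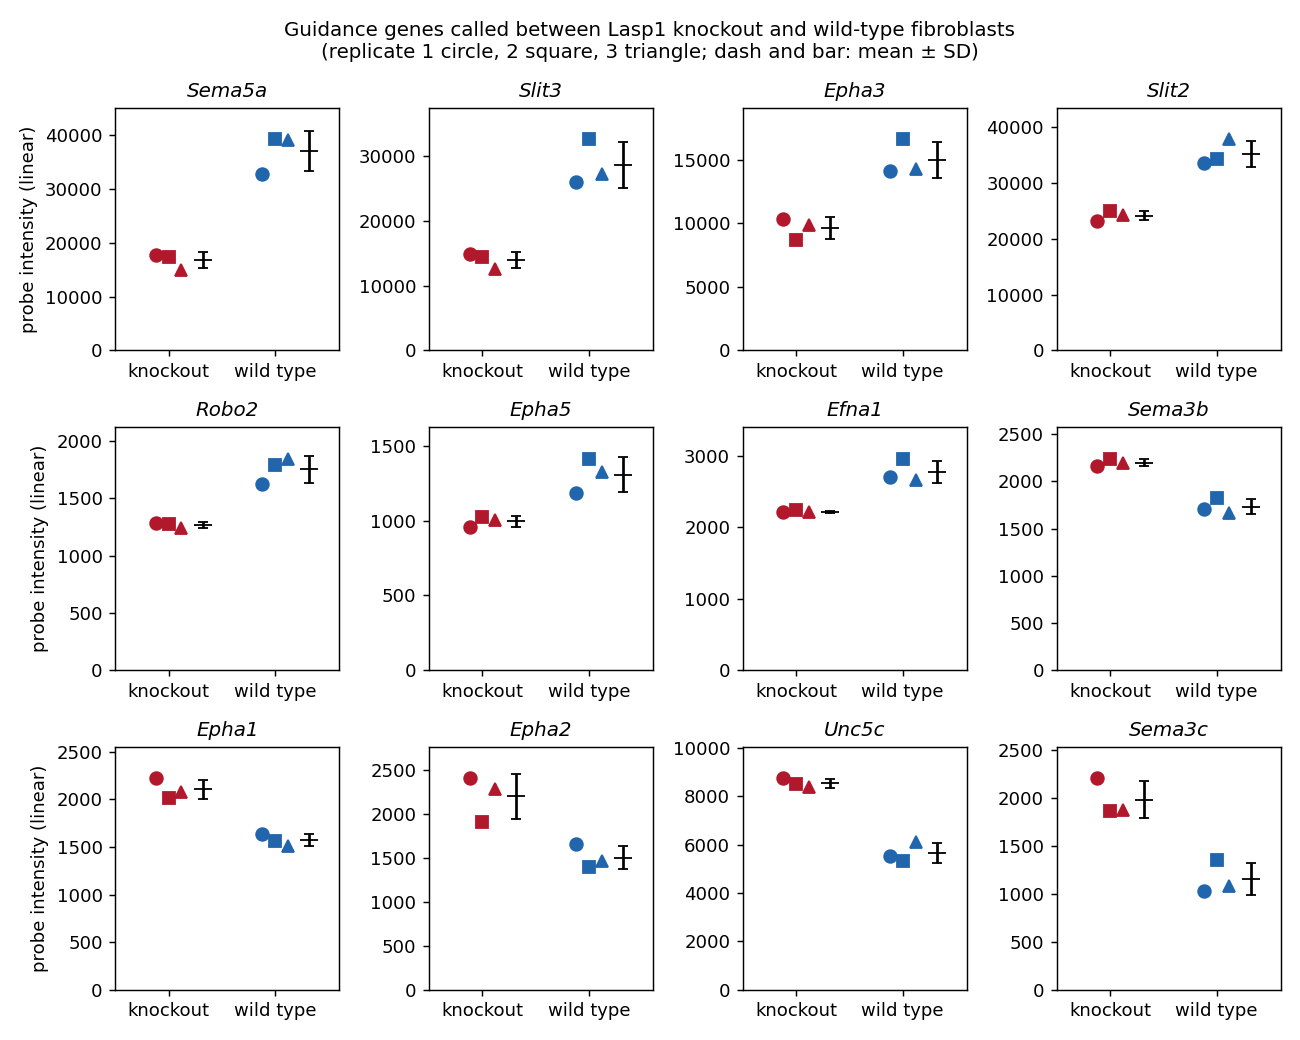
Probe intensity (linear scale) on each array for the 12 guidance genes called between genotypes, with knockout arrays in red and wild-type arrays in blue, and the mean with its SD beside each group. In all 12 panels the 3 knockout arrays lie wholly above or below the 3 wild-type arrays.

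Among 19 semaphorins, 1 fell and 2 rose. Sema5a, a transmembrane semaphorin with thrombospondin repeats outside the cell, fell most of all members. It read 17745, 17427 and 15012 in knockout arrays, against 32875, 39256 and 39179 in wild-type arrays. Knockout intensities were thus well under those of wild type on every array, with a log2 difference of -1.15 ± 0.10 (limma adjusted p = 0.000246). A further probe gave 10445, 11055 and 9616 in knockout arrays and 17957, 25158 and 21508 in wild-type arrays (-1.04 ± 0.12, limma adjusted p = 0.00137 over all probes). Its 3 other probes had means of 861 to 1180, near the median, and gave -0.11 to -0.03. With all 5 probes averaged the difference was smaller (-0.48) and still passed (limma adjusted p = 0.0026).

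Plexin-B3 and plexin-A3 are known receptors of Sema5a. Plxnb3 read 846, 840 and 879 in knockout arrays and 962, 1061 and 1108 in wild-type arrays. The knockout arrays were all lower, yet the difference of -0.29 ± 0.08 did not pass (limma adjusted p = 0.0662), and all 6 values lay near the array median. Plxnb3 was called in 4 of 11 alternative settings, with log2 differences there of -0.92 to -0.28. Over all 11 the differences ran from -0.92 to -0.07, with limma adjusted p up to 0.599. A dimmer Plxnb3 probe went the other way and did not pass (0.14 ± 0.08, limma adjusted p = 0.536 over all probes). Plxna3 averaged 988 ± 70.0 in knockout and 963 ± 76.4 in wild type (SD, n = 3 each) and the groups overlapped.

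Sema3c, a secreted semaphorin needed for cardiac outflow tract development, rose. It read 2203, 1867 and 1873 in knockout arrays and 1033, 1348 and 1087 in wild-type arrays. Wild-type values were near the array median and all 3 knockout values were above them. The log2 difference was 0.78 ± 0.11 (limma adjusted p = 0.0039), and background correction raised it to 1.41, so its size is not settled. Its dimmer probe averaged 902 and gave 0.12 ± 0.07, which did not pass.

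Sema3b, a secreted semaphorin known as a tumour suppressor candidate, read 2164, 2238 and 2192 in knockout arrays and 1707, 1823 and 1664 in wild-type arrays. The groups did not overlap and differed by 0.35 ± 0.07 on the log2 scale (limma adjusted p = 0.0205). A dimmer Sema3b probe gave 0.27 ± 0.09 (limma adjusted p = 0.193 over all probes), and the mean over all 6 probes gave 0.08 (limma adjusted p = 0.528). Sema3b also lost its call after background correction (limma adjusted p = 0.116) and without knockout replicate 2, knockout replicate 3 or wild type replicate 3 (limma adjusted p of 0.0865 to 0.108). Sema3f, 3 protein-coding genes away from Sema3b on chromosome 9, read 32343, 28827 and 26454 in knockout arrays and 18736, 33370 and 24171 in wild-type arrays. Its groups overlapped because wild type replicate 2 was the highest of all 6 arrays, and its difference of 0.24 ± 0.18 did not pass (limma adjusted p = 0.591).

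The remaining 15 semaphorins gave log2 differences of -0.35 (Sema6d) to 0.22 (Sema3a), and 0 of them passed. Sema6d, a transmembrane ligand of plexin-A1, read 1407, 1315 and 1402 in knockout arrays and 1526, 1885 and 1858 in wild-type arrays, with separate groups (-0.35 ± 0.09, limma adjusted p = 0.0667). It passed after quantile normalization, with trend and robust estimation, and when wild type replicate 1 was dropped. Sema7a, a membrane-anchored semaphorin, likewise had all 3 knockout arrays lower (-0.17 ± 0.08, limma adjusted p = 0.31). The other 13 had overlapping groups, and 4 of the 15 (Sema3d, Sema3g, Sema4c and Sema6c) were at or below the median of all probes in both groups.

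Neuropilin 1, the coreceptor of class 3 semaphorins and of VEGF, did not pass at its brightest probe but passed at another. At its brightest probe Nrp1 read 44650, 29276 and 38352 in knockout arrays and 20556, 29980 and 23779 in wild-type arrays. The groups overlapped, since knockout replicate 2 was slightly below wild type replicate 2, and the difference of 0.59 ± 0.17 did not pass (limma adjusted p = 0.0831). At its dimmest probe the arrays read 11850, 8730 and 9398 in knockout and 2822, 6327 and 3684 in wild type. There the groups were apart and the probe rose by 1.30 ± 0.25 (limma adjusted p = 0.0221 over all probes). The third probe gave 0.69 ± 0.17 (limma adjusted p = 0.0559). The gene passed after quantile normalization (0.70, limma adjusted p = 0.00155), as the mean of its 3 probes (0.86, limma adjusted p = 0.0455), and without wild type replicate 2 (0.74, limma adjusted p = 0.0139) or knockout replicate 2 (0.76, limma adjusted p = 0.0431). It also passed with trend and robust variance estimation (limma adjusted p = 0.023). Nrp1 was thus called in 5 of 12 settings. In the other settings it missed the threshold, with log2 differences of 0.45 to 0.60 and limma adjusted p of 0.0634 to 0.29. Those were background correction, genes above the median, the replicate block, and dropping replicate 1 or 3 of knockout or wild type.

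Nrp2, the related coreceptor, read 1168 ± 147 in knockout and 1121 ± 90.2 in wild type (SD, n = 3 each) and did not differ beyond that spread. Of 9 plexins, 0 passed, and 3 (Plxna1, Plxna3 and Plxna4) were at or below the median in both groups. Plxna2, a receptor of class 3 and class 6 semaphorins, read 9360, 9572 and 8373 in knockout arrays and 5827, 8689 and 7401 in wild-type arrays. Its groups overlapped only through wild type replicate 2 (0.33 ± 0.13, limma adjusted p = 0.216), and it passed without that array (0.47, limma adjusted p = 0.0303) and after quantile normalization (0.43, limma adjusted p = 0.0105). Plxnd1, the plexin bound by Sema3e and, with neuropilins, by Sema3c, read 5407 ± 263 in knockout and 4824 ± 657 in wild type (SD, n = 3 each). It passed after quantile normalization only (0.25, limma adjusted p = 0.0415). A dimmer Plxnd1 probe gave 0.09 ± 0.11 and the dimmest went the other way (-0.19 ± 0.09). Neither passed (limma adjusted p = 0.801 and 0.378 over all probes). Plxnb2, the receptor of Sema4c and Sema4d, read 18914 ± 1844 in knockout and 20158 ± 2522 in wild type (SD, n = 3 each), with overlapping groups.

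**Figure D3:**
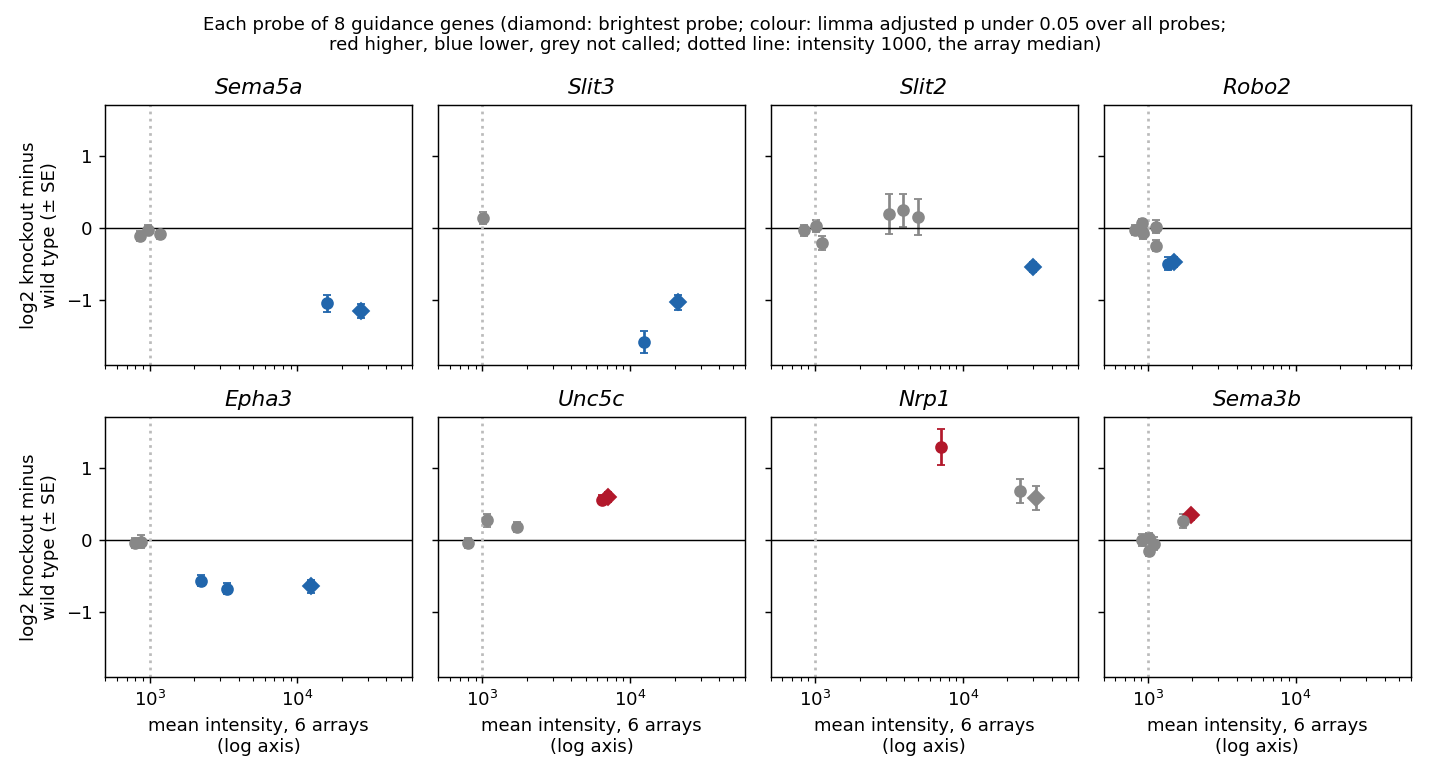
Log2 difference, knockout minus wild type, with its SE for every probe of 8 guidance genes against the probe's mean intensity over the 6 arrays (log axis). The 2 bright probes of Sema5a and of Slit3 lie below 0, whereas in Slit2 the brightest probe lies below 0 and the 3 probes with means of 3173 to 4929 lie above it without passing.

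Eph receptors went both ways, with 2 rises and 2 falls among 13. Epha3, a receptor kinase of mesenchymal and neural progenitor cells, fell. It read 10343, 8698 and 9833 in knockout arrays and 14077, 16603 and 14245 in wild-type arrays. The groups were apart, with a log2 difference of -0.64 ± 0.10 (limma adjusted p = 0.00474). Its next 2 probes fell as well, by 0.67 and 0.56 on the log2 scale (limma adjusted p = 0.0017 and 0.00411 over all probes), and the 2 probes below the median gave -0.02 and -0.03. Among other settings, the call missed the threshold after background correction (-0.67, limma adjusted p = 0.0567).

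Epha5, a receptor best known from the brain, was dim. It read 956, 1024 and 1006 in knockout arrays and 1184, 1413 and 1325 in wild-type arrays, with separate groups (-0.39 ± 0.08, limma adjusted p = 0.0257). Its knockout mean of 996 is at the array median, so the size of the fall is not settled. Background correction gave -0.91, and the mean over its 6 probes, 5 of them below the median, gave -0.09 (limma adjusted p = 0.44). Epha5 lost its call without knockout replicate 1, 2 or 3 or without wild type replicate 3 (limma adjusted p of 0.0711 to 0.123).

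Epha1 and Epha2, receptors found mainly in epithelia, rose. Epha2 read 2408, 1910 and 2293 in knockout arrays and 1659, 1400 and 1462 in wild-type arrays, and Epha1 read 2221, 2019 and 2080 in knockout arrays and 1637, 1568 and 1513 in wild-type arrays. In both genes every knockout array exceeded every wild-type array. The log2 differences were 0.55 ± 0.11 for Epha2 (limma adjusted p = 0.0163) and 0.42 ± 0.07 for Epha1 (limma adjusted p = 0.0102). Of the 9 epithelial markers 6 did not pass, and most of the lower epithelial sum in knockout cells came from Krt14, at 2565 ± 29.0 in knockout and 15557 ± 2617 in wild type (SD, n = 3 each). The part of this shift in the Epha1 and Epha2 results was not tested. Epha2 was not called without knockout replicate 3 (0.51, limma adjusted p = 0.0981) or wild type replicate 3 (0.53, limma adjusted p = 0.0919). Epha1 was not called without the same arrays (limma adjusted p = 0.0553 and 0.066), after background correction (limma adjusted p = 0.0533) or as the mean of its 4 probes (0.16, limma adjusted p = 0.177).

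The other 9 Eph receptors did not pass. Ephb3 read 2105, 1596 and 1698 in knockout arrays and 2130, 3561 and 2671 in wild-type arrays. The wild-type arrays varied widely and only narrowly cleared the highest knockout array (-0.61 ± 0.18, limma adjusted p = 0.0828). Ephb3 passed after quantile normalization, with trend and robust estimation, and without wild type replicate 1. Ephb4, the receptor of ephrin-B2 in veins, read 11426 ± 1225 in knockout and 13441 ± 2627 in wild type (SD, n = 3 each), with overlapping groups. Its dimmer probes gave -0.55 ± 0.15 and -0.29 ± 0.07 and did not pass (limma adjusted p = 0.0977 and 0.0638 over all probes). On each of these probes every knockout array lay below every wild-type array. Epha4, which binds ephrins of both classes, read 1160 ± 34.2 in knockout and 1208 ± 125 in wild type (SD, n = 3 each). The remaining 6 gave differences of -0.14 to 0.13.

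Of 8 ephrins, 1 fell. Efna1, a ligand of Epha2 anchored in the membrane by a lipid, read 2213, 2241 and 2212 in knockout arrays and 2706, 2963 and 2667 in wild-type arrays. The knockout arrays were nearly equal and all lower, with a log2 difference of -0.32 ± 0.07 (limma adjusted p = 0.0313). The call was close to the threshold and was lost in 8 of 12 settings, with log2 differences there of -0.44 to -0.27 and limma adjusted p of 0.0717 to 0.177. Efna3 and Efna4, its neighbours on chromosome 3 with at most 1 protein-coding gene between them and Efna1, gave -0.13 ± 0.08 and -0.24 ± 0.19 and did not pass.

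Efna5, a ligand of Epha3, Epha4, Epha5 and Epha7, read 62863, 51967 and 55123 in knockout arrays and 44798, 74590 and 63497 in wild-type arrays. The wild-type arrays spanned the whole knockout range (-0.08 ± 0.17, limma adjusted p = 0.888). The sign at this brightest probe turned once wild type replicate 2 was removed (0.08), and also with quantile-normalized intensities (0.0014). A dimmer Efna5 probe had all knockout arrays below the wild-type arrays but did not pass (-0.16 ± 0.07, limma adjusted p = 0.376 over all probes). Efnb1, a transmembrane ephrin, read 7194 ± 948 in knockout and 7942 ± 436 in wild type (SD, n = 3 each) and did not pass. Thus Epha3 and Epha5 were lower, while their ligand Efna5 varied more at its brightest probe within wild type than between the genotypes.

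Netrin receptors gave 1 rise. Unc5c, which mediates repulsion by netrin 1, read 8729, 8512 and 8368 in knockout arrays and 5543, 5305 and 6100 in wild-type arrays. The groups were far apart relative to their spread, with a log2 difference of 0.60 ± 0.08 (limma adjusted p = 0.00197). A second probe of Unc5c gave 7874, 7777 and 7607 in knockout arrays and 5355, 5151 and 5217 in wild-type arrays (0.56 ± 0.06, limma adjusted p = 0.00119 over all probes). Of its 3 dimmer probes, 2 gave 0.18 and 0.28 and 1 gave -0.03, and none of these 3 passed.

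Unc5b, the receptor of netrin 1 in blood vessel branching, went the other way without passing. It read 2913, 2427 and 2128 in knockout arrays and 3137, 5471 and 2703 in wild-type arrays. The groups overlapped, and wild type replicate 2 stood far above its group (-0.54 ± 0.23, limma adjusted p = 0.249). Unc5a was near the median (1014 ± 69.9 in knockout and 1049 ± 42.8 in wild type, SD, n = 3 each), and Unc5d was at or below it. Among ligands, Ntn3 read 3976 ± 210 in knockout and 4072 ± 647 in wild type, and Ntn5 read 1042 ± 46.1 in knockout and 1105 ± 57.2 in wild type (SD, n = 3 each), with overlapping groups in both. Ntn4 was close to the median as well, and netrin 1 was not analysed here.

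The exact two-sided permutation p of each of the 12 called genes was 0.1, the smallest that 3 arrays against 3 allow. Groups did not overlap in 19 of the 64 members (29.7%), against 21.3% of all genes. Among genes brighter than the median probe in knockout, wild type or both, these shares were 34.6% and 27.6%. That filter can admit a gene through its higher group alone, as for Plxnb3 (855 in knockout and 1044 in wild type). The shares after this filter are thus not independent of the difference between the groups. Of the 19 members, 7 were not called.

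Genes around the guidance receptors were counted from related lists. Of 19 coreceptors and other guidance proteins, 1 fell, 0 rose and 18 did not pass, with a median log2 difference of -0.03. The share called was near the 6.28% of all genes. The fall was in Ntng1, a netrin-like membrane protein that does not bind the netrin receptors, with 1298 ± 39.3 in knockout and 2235 ± 239 in wild type (SD, n = 3 each, log2 difference -0.78 ± 0.09, limma adjusted p = 0.00102). Averaging all probes of Ntng1 gave -0.21, which missed the threshold (limma adjusted p = 0.11). The netrin receptors Neo1 (27844 ± 2139 in knockout and 29693 ± 1702 in wild type) and Dcc (1042 ± 19.6 in knockout and 965 ± 59.8 in wild type) did not pass.

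Of 53 signalling proteins downstream of guidance receptors, 3 rose, 0 fell and 50 did not pass, with a median of -0.02, again a share near the 6.28% of all genes. Pak3, a kinase activated by Rac and Cdc42, read 19331 ± 2013 in knockout and 9711 ± 906 in wild type (SD, n = 3 each). Its log2 difference of 0.99 ± 0.10 (limma adjusted p = 0.000606) passed in all 12 other settings. Enah, an Ena/VASP protein that elongates actin filaments, read 3551 ± 457 in knockout and 1707 ± 565 in wild type (SD, n = 3 each), a difference of 1.10 ± 0.20 (limma adjusted p = 0.0113). Enah missed the threshold without knockout replicate 3 (1.16, limma adjusted p = 0.0587) or wild type replicate 3 (0.93, limma adjusted p = 0.0635). Dpysl3, a collapsin response mediator protein of the semaphorin pathway, read 28559 ± 3329 in knockout and 19010 ± 4286 in wild type (SD, n = 3 each). It passed narrowly (0.60 ± 0.15, limma adjusted p = 0.0493) and lost its call in 8 of 12 settings, with limma adjusted p there of 0.0653 to 0.199. Of 12 enzymes that cleave guidance proteins, such as Furin and Adam17, 0 passed, with a median of -0.09.

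**Figure D4:**
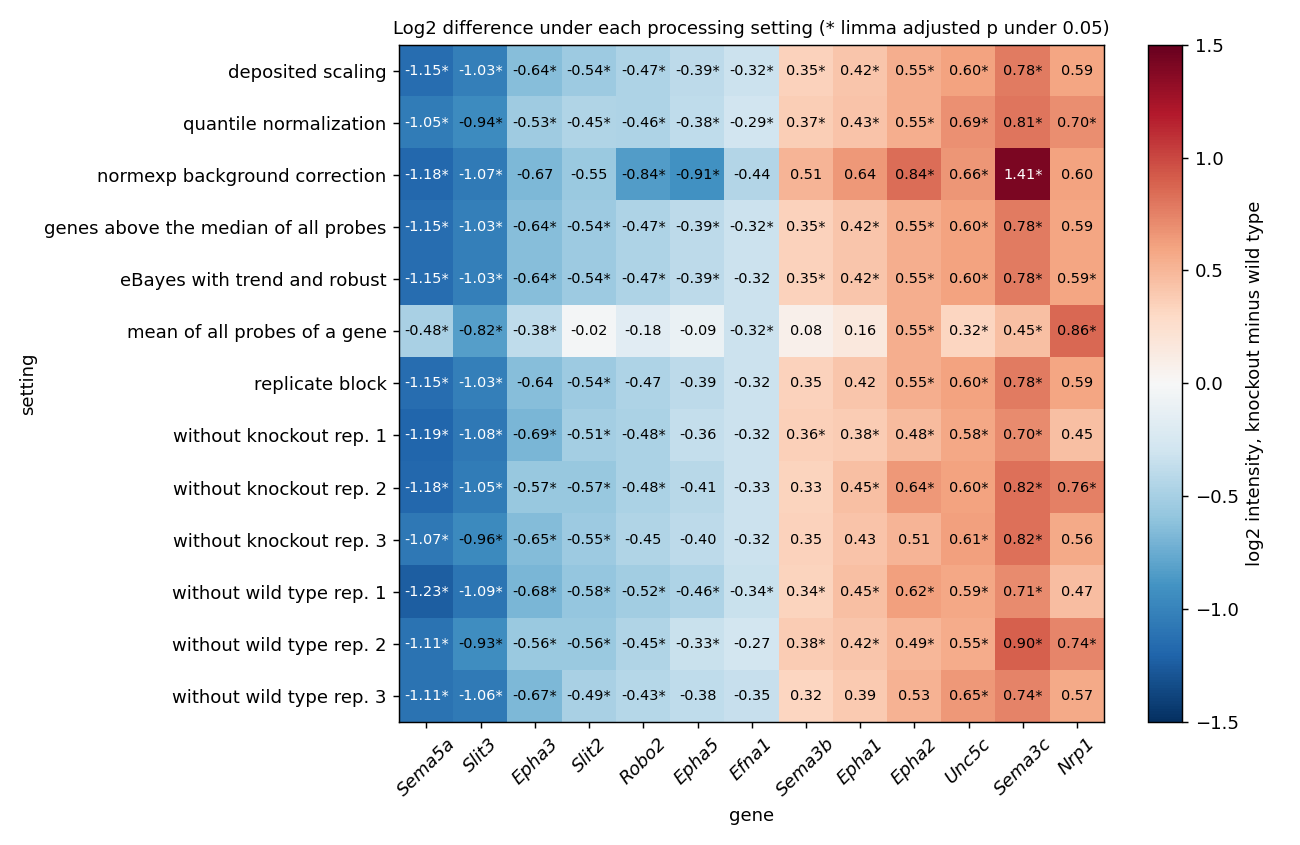
Log2 difference, knockout minus wild type, of the 12 called guidance genes and Nrp1 (columns) under the deposited scaling and 12 other settings (rows), with an asterisk where the limma adjusted p is under 0.05. Sema5a, Slit3, Sema3c and Unc5c carry an asterisk in every row, and no cell of the 13 genes changes sign.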

How the data were processed

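RNA of 6 fibroblast samples (3 Lasp1 knockout, 3 wild type) was converted to biotin-labelled cRNA and hybridised to Illumina arrays, as the labels' protocols state. The table deposited by the authors holds linear intensity values per probe. In the files each array has a median of 1000 and the lowest value is 593. The sources used here name no scanner or software. Of 45281 probes, 34885 had 1 gene symbol in the platform annotation, 18 had several and 10378 had none, and the last 2 kinds were left out. The brightest probe of each of 19057 genes was transformed to log2 with a pseudocount of 0 and tested by limma 3.58.1 under R 4.3.3 (lmFit and eBayes with genotype as the only term, 4 residual and 5.13 prior degrees of freedom). Two-sided p-values received the Benjamini-Hochberg adjustment across all genes, and 0.05 was the threshold. Each probe was also tested over all probes.

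Named genes were the called members, the 2 brightest members of each family, known partners of called members, up to 3 rises and 3 falls of each related list, and Lasp1. Other members (Sema6d, Sema7a, Ephb3, Unc5a and the like) were named after their values had been seen. The lists were 3 of guidance-related genes and 8 of cell type markers. The members and lists were chosen with earlier results of these data known. Promoters came from RefSeq (GRCm38.p6) by symbol, and coordinates of probes were not analysed here. Alternatives were quantile normalization, limma's normexp background correction (offset 50), testing only genes brighter than the median probe, trend and robust variance estimation, averaging a gene's probes, a block for the replicate number, and dropping each array in turn. Arrays give no counts, and their number limits the precision. Whether the replicate numbers pair the arrays is not known, as the closing section describes.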

Additional observations from a re-analysis of the deposited data

How the results depend on the processing

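Among the 33 named guidance genes, 28 kept their direction under every alternative that tested them. Some dim genes were not tested in the setting restricted to genes above the median. Of the 12 called genes, 4 kept their call under all 12 alternatives. The counts in the 64 genes were 5 rises and 7 falls. They became 9 and 10 after quantile normalization, 3 and 5 after background correction, 4 and 4 with the mean of all probes, 6 and 9 with trend and robust estimation, and 5 and 7 among genes above the median. The share of all genes called was 6.28% as deposited and 11%, 2.82%, 5.01%, 6.46% and 9.84% in these settings. Leaving out an array gave 2 to 7 rises and 4 to 10 falls, with 2 and 4 when knockout replicate 3 was dropped, 2 and 5 when wild type replicate 3 was, and 5 and 10 when wild type replicate 1 was, while 2.43% to 8.36% of all genes were called. Over all genes quantile normalization called 1009 rises and 1083 falls, against 418 and 778. The replicate number as a block gave 3 rises and 3 falls in the guidance genes, with 2.18% of all genes called. Epha2, Sema3c, Sema5a, Slit2, Slit3 and Unc5c passed with it, and Efna1, Epha1, Epha3, Epha5, Robo2 and Sema3b did not (limma adjusted p of 0.063 to 0.129). Deviations of same-numbered arrays correlated at -0.41, -0.34 and 0.22, and those of knockout replicate 1 and wild type replicate 2 at 0.47. A deviation shared by differently numbered arrays can hide one shared by number, so these values cannot tell whether the numbers pair the arrays.

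For coreceptors (0 rises, 1 fall) quantile normalization gave 1 and 3, the mean of all probes 0 falls, and leaving out an array 1 to 2 falls. For signalling proteins (3 rises, 0 falls) quantile normalization gave 9 and 2, trend and robust estimation 2 falls, the mean of all probes 1 fall, the replicate block 1 rise (Pak3, not Enah or Dpysl3), and leaving out an array 1 to 7 rises and 0 to 2 falls. The cleaving enzymes (0 falls) gave 0 to 1 falls when an array was left out. None of the differences that changed sign passed in any setting. Dropping an array in turn gave -0.285 to 0.0824 for Efna5 (positive without wild type replicate 2), -0.0437 to 0.126 for Nrp2 (negative without knockout replicate 1 or wild type replicate 3), -0.131 to 0.0951 for Ntn3 (positive without knockout replicate 3 or wild type replicate 2) and -0.0194 to 0.0984 for Plxna3 (negative without knockout replicate 3 or wild type replicate 2). Quantile normalization gave 0.0014 for Efna5, 0.055 for Ntn3 and 0.0096 for Plxnb2. The mean of all probes gave -0.015 for Nrp2 and 0.056 for Ntn3. The causes were not tested. In 12 of the 64 genes both group means were at or below the median probe, where signal above background is not known.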
